A study of Caenorhabditis elegans with 15 samples.

Results

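Whole wild-type worms of the strain N2 that had fed on C. chinensis extract were compared with worms that had fed on E. ulmoides extract, across all genes expressed in either. The C. chinensis extract came from seeds of Cuscuta chinensis and the E. ulmoides extract from bark of Eucommia ulmoides, both plants of traditional Chinese medicine. Both were given at 30 µg/mL in 0.05% DMSO from the last larval stage (L4) to day 12 of adulthood, and another set of worms received 0.05% DMSO alone. All plates held the antibiotic carbenicillin (2 mg/mL) and 100 µM FUdR, a DNA synthesis inhibitor that stops the production of offspring, and were kept at 22 °C. The comparison used the 5 C. chinensis and the 5 E. ulmoides libraries, which are 10 of the 15 libraries of the series, each from a pool of about 3000 to 4000 worms, and the 5 DMSO libraries give the untreated level. Expression was given as FPKM, in which a gene's fragment count is corrected for its length and for the size of the library. The table lists 46906 genes, and the 13427 of them that reached 1 FPKM in 5 or more of these 10 libraries were tested. The question was which genes differ in old worms between 2 plant extracts that the study had chosen for their effects on health in ageing.

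An adult hermaphrodite of C. elegans is built of a cuticle-bearing hypodermis, body wall and pharyngeal muscle, an intestine that digests bacteria, stores fat and makes yolk, a small nervous system and a gonad. Hypodermis and intestine are also the organs of innate immunity, which rests on antimicrobial peptides, lysozymes, lectins and saposin-like proteins because the worm has no antibody-producing cells. The cells of the adult body no longer divide, so cell cycle and meiosis genes are read mainly from the germ line. Whole worms were sequenced, so fewer cells of a type and less RNA per cell cannot be told apart.

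Many immune, digestive, lipid, detoxification, muscle and matrix genes were higher with C. chinensis than with E. ulmoides. Some histone and germline genes were lower, in numbers that depended on the scaling, and F-box genes were called in both directions. The limma package called 2129 genes higher with C. chinensis (15.9% of the 13427 tested) and 837 lower (6.23%), where a call needed an adjusted p (Benjamini-Hochberg) under 0.05 together with a change of more than 1.5-fold in either direction. The median log2 fold change was 0.78 over the genes called higher and -0.67 over those called lower. A change of more than 2-fold was reached by 454 of the higher and 22 of the lower genes, and one of more than 4-fold by 12 and 1. Without a fold limit, 4357 genes (32.4%) passed as higher and 4745 (35.3%) as lower. In 4796 genes (35.7%) all 5 C. chinensis FPKM values lay above all 5 E. ulmoides values, and in 1564 (11.6%) all lay below. Of the called genes, 2045 higher and 742 lower ones were separated in this way. Separation and overlap, here and below, were judged on the deposited FPKM, before the scaling used in the test. There the median log2 fold change over all genes was 0.22, against -0.004 after scaling, so these counts favour the higher direction. The filter itself leaned to one side, since 199 genes passed it through the C. chinensis libraries alone, of which 124 were called higher, and 2 passed through the E. ulmoides libraries alone (F58A4.12 and C36A4.12), neither of which was called.

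**Figure D1:**
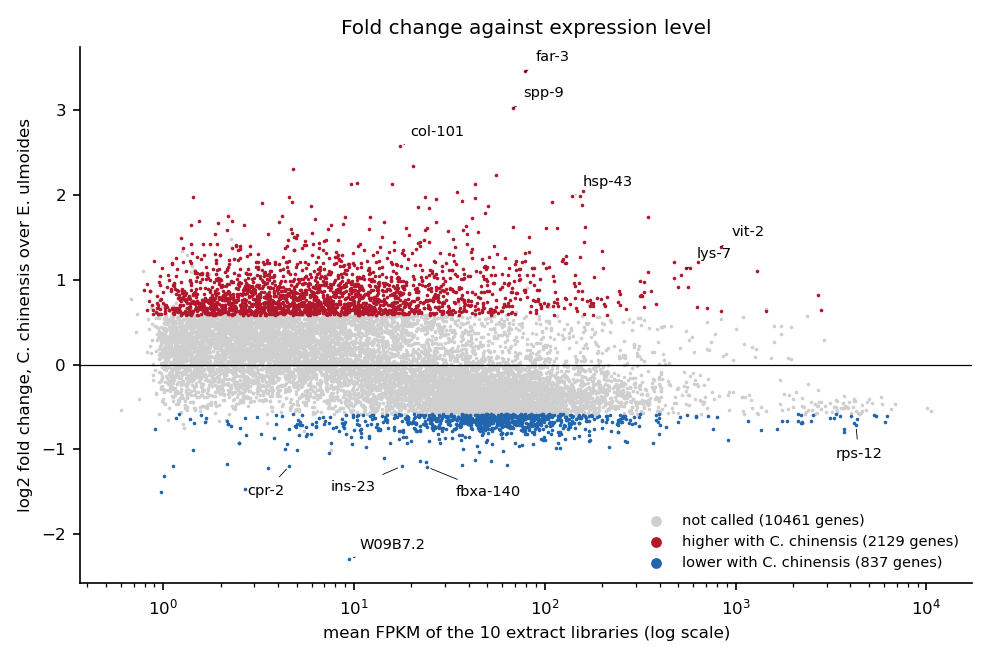
Log2 fold change (C. chinensis over E. ulmoides) of each of the 13427 genes tested against its mean FPKM over the 10 libraries on a log axis, with genes called higher in red, genes called lower in blue and the others in grey. The 2129 higher genes reach down to the weakest expressed genes, and the 837 lower genes lie mostly above 20 FPKM.

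How many genes count as higher or lower depended on how the libraries were put on one scale. Over all genes tested, the median log2 fold change was -0.004 as scaled here by a trimmed mean of M values, 0.22 on the deposited FPKM, 0.03 with median-of-ratios scaling, -0.07 with quantile normalization and -0.02 with cyclic loess. Higher calls made up 71.8% of all calls here, 64.3% with quantile normalization, 70.0% with cyclic loess, 78.5% with median-of-ratios scaling and 97.9% on the deposited FPKM. Weak genes moved up against strong genes. The median log2 fold change was 0.33 among the 2429 genes with a mean of 2 to 5 FPKM and -0.36 among the 1388 genes above 100 FPKM, and quantile normalization brought these to 0.02 and -0.10. With all 5 scalings, 1030 genes were called higher each time and 60 lower each time, and no gene was called higher with one of them and lower with another. The calls given below are those with the trimmed mean. Of the 65 gene lists, 51 had more higher calls on the deposited FPKM than here, and 26 of the 29 lists with lower calls had fewer lower ones. Many lists also changed with quantile normalization or cyclic loess, and those numbers are given beside the lists where they differ most.

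**Figure D2:**
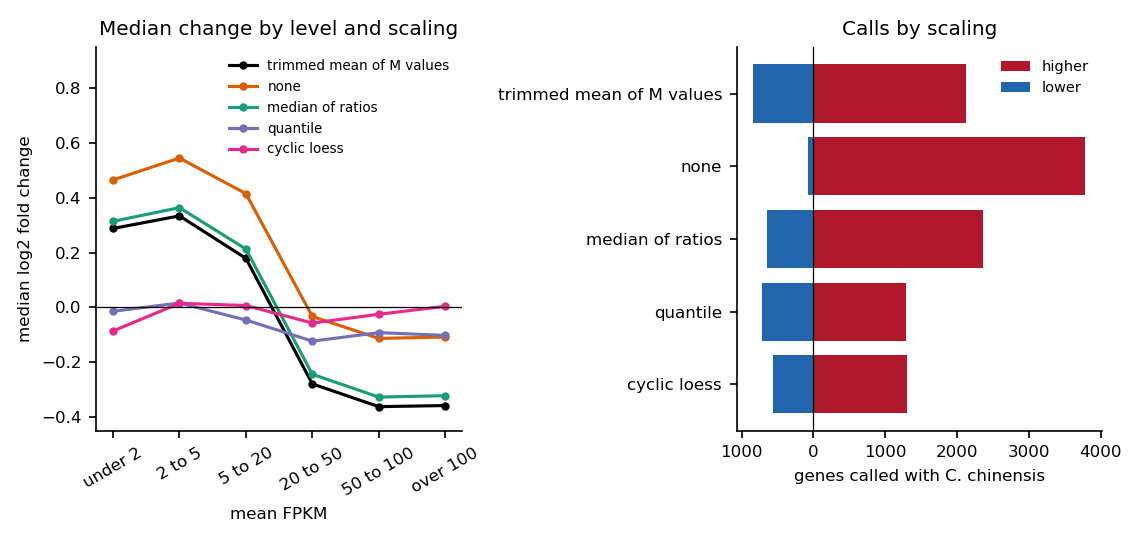
Left, the median log2 fold change (C. chinensis over E. ulmoides) of genes grouped by mean FPKM, with one line for each of 5 scalings. Right, the number of genes called higher (red, to the right) and lower (blue, to the left) with each scaling, which runs from 3787 higher and 80 lower without further scaling to 1285 higher and 713 lower with quantile normalization.

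The libraries held 37963794 to 81833288 fragments with C. chinensis, 39567765 to 87238546 with E. ulmoides and 37920765 to 82839505 with DMSO. Genes at 1 FPKM or more numbered 13572 to 14231 with C. chinensis, against 12746 to 12982 with E. ulmoides, so the groups did not overlap, and 12798 to 13346 with DMSO. The first principal component took 63.8% of the variance and placed the C. chinensis libraries at 17.2 to 44.7 and the E. ulmoides libraries at -35.1 to -20.9. Fragments of the mitochondrial genome made up 0.368% to 0.637% with C. chinensis and 0.238% to 0.332% with E. ulmoides. Chemoreceptor genes, which are hardly expressed in any tissue but a few sensory neurons, took 0.0176% to 0.0213% of the fragments with C. chinensis and 0.0110% to 0.0133% with E. ulmoides. The part of these differences in the gene results was not tested.

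Markers of muscle and intestine were higher with C. chinensis, and those of germ cells were not. All 6 body wall muscle markers were called higher, and their summed FPKM was 114.9 to 198.2 with C. chinensis, 56.58 to 69.8 with E. ulmoides and 47.2 to 70.9 with DMSO. All 5 intestinal markers were also called higher, with sums of 137.2 to 189, 70.73 to 88.7 and 84.2 to 125.3 in the same order of groups. Of the other somatic markers, 3 of 4 for pharynx, 2 of 3 tested for hypodermis, 1 of 1 tested for coelomocytes, 1 of 2 for the excretory cell and 1 of 5 for neurons were called higher. The neuronal sum was 458.5 to 538.3 with C. chinensis and 333.5 to 380.3 with E. ulmoides. Of 5 germline markers none was called higher and 2 lower, and the sum was 926.4 to 1169 with C. chinensis and 1158 to 1348 with E. ulmoides, which overlapped. Of 5 oocyte and embryo markers 1 was called lower, and of 4 sperm markers none was called. Over all genes 15.9% were called higher and 6.23% lower, and the neuronal share of higher calls lay near that of all genes. The marker sets were counted with the trimmed mean of M values alone, not with the other scalings. None of the markers was at 0 in all 10 libraries.

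Of the called genes whose groups did not overlap, the 15 with the largest higher change were led by a lipid carrier and a saposin. Lack of overlap was a condition of entering this set, so it adds no support for its genes. far-3 (V:12996787-12997522, WBcel235) encodes a fatty acid and retinol binding protein. Its FPKM was 218, 81.4, 167, 65.4 and 210.4 in the 5 C. chinensis libraries, replicates 1 to 5 in this order here and below, against 12.5, 8.76, 7.53, 12.3 and 8.4 in the E. ulmoides libraries, and 4.42 ± 2.37 (mean ± SD, n = 5) with DMSO. The groups did not overlap, the lowest C. chinensis value being 5.22 times the highest E. ulmoides value, and the log2 fold change was 3.46 ± 0.33 (SE, adjusted p = 5.86e-07). A short stretch of far-3 (7.43% of its exons) is shared with the neighbouring far-5, which was also called higher at 1.20. spp-9 (X:11487784-11488203), a saposin-like gene, had 230.4, 57.6, 147, 31.6 and 166 FPKM with C. chinensis, against 13.5, 8.15, 9.93, 8.52 and 10.5 with E. ulmoides, and 2.69 ± 2.2 with DMSO (log2 fold change 3.03 ± 0.44, adjusted p = 1.3e-05). Replicates 2 and 4 were the lowest C. chinensis libraries for both genes, and even these stood above all E. ulmoides libraries. A second saposin-like gene, spp-12, had 50.4, 20.1, 48.3, 18.9 and 40.1 FPKM against 6.85, 6, 4.13, 4.83 and 3.9 (log2 fold change 2.35 ± 0.25).

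Of the same 15 genes, 7 were cuticle collagens. col-101 had 58.3, 24.4, 19.5, 8.82 and 46.8 FPKM with C. chinensis, against 3.52, 3.98, 2.75, 3.13 and 3.11 with E. ulmoides (log2 fold change 2.57 ± 0.42). col-143 had 209, 61.8, 63.2, 30.3 and 122.1 FPKM against 20, 14.4, 12.6, 10.9 and 11.9 (2.24 ± 0.39 on the log2 scale). The strongest expressed of them, col-181, had 407, 184, 237, 139 and 372 FPKM against 61.7, 43.5, 44.2, 57.1 and 44.7 (2.05 ± 0.25). In all 3 the lowest C. chinensis library was replicate 4, and the C. chinensis libraries spread over a 2.93-fold to 6.90-fold range. That their groups did not overlap was required for entering the set of 15. col-19, an adult-specific cuticle collagen, col-183, col-178 and col-122 had log2 fold changes of 2.14, 2.30, 2.13 and 1.99. Collagen genes are near copies of each other, and how fragments that fit several genes were counted is not stated in the sources used here, so values of single members are uncertain.

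Of the remaining top genes, ifb-1 encodes an intermediate filament of the epidermis that links muscle to cuticle. Its FPKM was 81.4, 48.8, 77.6, 60.4 and 97.8 with C. chinensis, against 12.2, 11.8, 13.1, 15 and 14.5 with E. ulmoides, and 17.3 ± 7.59 with DMSO (log2 fold change 2.13 ± 0.22, adjusted p = 8.16e-07). hsp-43, a small heat shock protein of the alpha-crystallin family, had 234, 168, 258, 201 and 288 FPKM against 49.8, 43, 48.2, 51.7 and 46.1 (log2 fold change 1.98 ± 0.18, adjusted p = 5.29e-07). The E. ulmoides values of hsp-43 spread over less than 10 FPKM, and no C. chinensis library came near them. C35B1.4 averaged 57.8 ± 16 FPKM with C. chinensis and 11.3 ± 2.21 with E. ulmoides (SD, n = 5 each), and T12B5.15 averaged 7.83 ± 2.71 and 1.26 ± 0.307. The last of the 15, 21ur-13748, is an annotated piRNA locus, in libraries selected for far longer fragments than a piRNA. It rested on 15 to 35 fragments per C. chinensis library against 3 to 10 per E. ulmoides library.

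**Figure D3:**
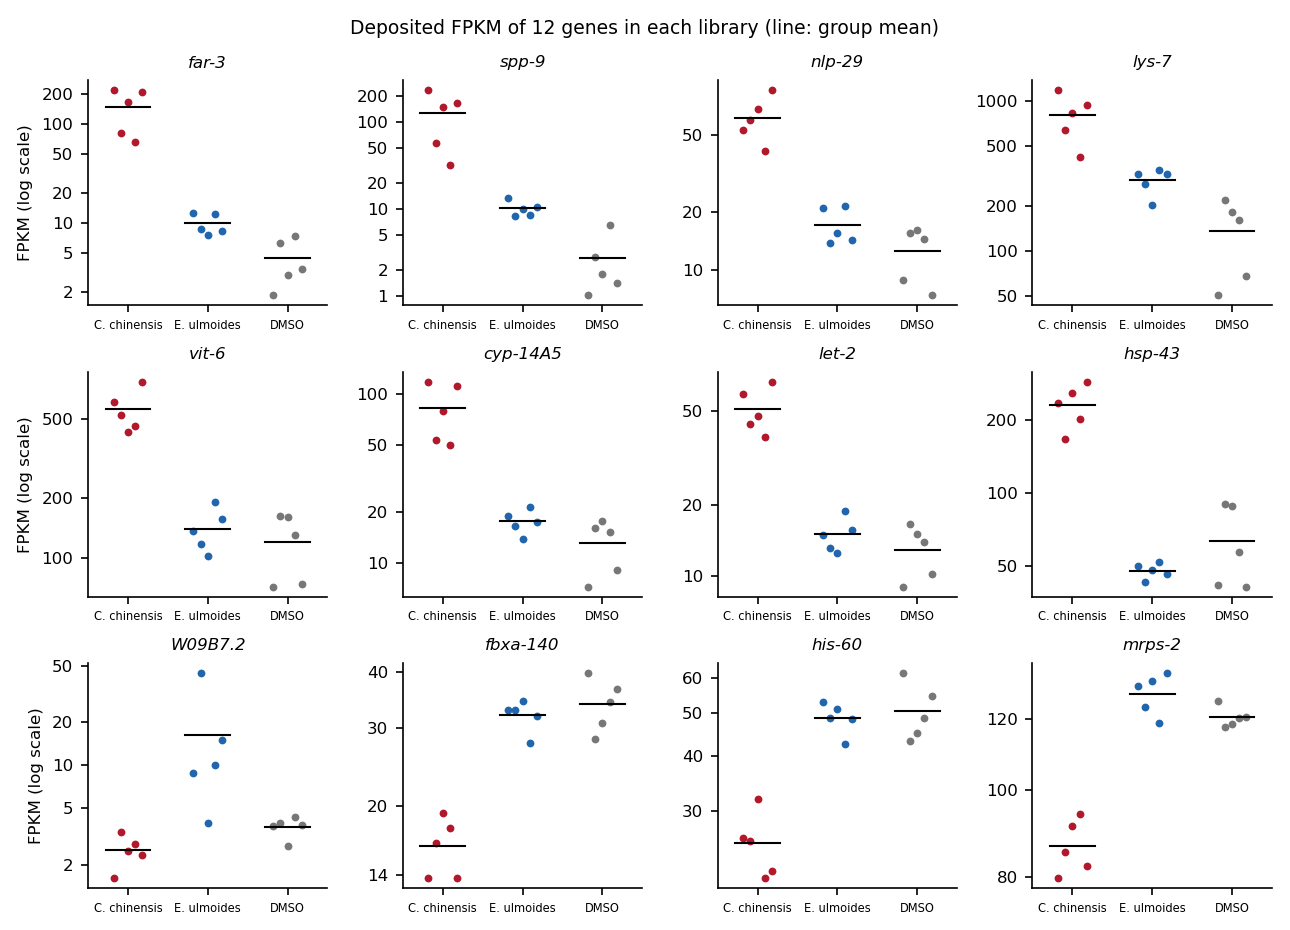
Deposited FPKM, on log axes, of 12 genes in each C. chinensis (red), E. ulmoides (blue) and DMSO (grey) library, with a line at each group mean. In the upper 8 genes all C. chinensis libraries lie above all E. ulmoides libraries, and in the lower 4 (W09B7.2, fbxa-140, his-60, mrps-2) all lie below.

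Antimicrobial peptide genes of the epidermis were higher with C. chinensis. The list holds the nlp-29 cluster and the caenacins, which the hypodermis switches on after fungal infection and wounding. Of its 21 genes in the table, 17 were tested and all 17 were called higher and had groups that did not overlap, with log2 fold changes of 0.80 to 1.79 and a median of 1.22, against a median of -0.004 over all genes. Of all genes, 15.9% were called higher and 35.7% had all C. chinensis values above all E. ulmoides values. With quantile normalization or cyclic loess 15 of the 17 kept the call. nlp-29 had 52.8, 59.8, 68.1, 40.9 and 84.8 FPKM with C. chinensis, against 20.9, 13.7, 15.5, 21.3 and 14.3 with E. ulmoides, and 12.4 ± 4.02 with DMSO (log2 fold change 1.55 ± 0.20). Its neighbour nlp-28 had 65.9, 84.7, 87.4, 53.9 and 96.3 FPKM against 24.1, 12.5, 14.7, 28.8 and 15.1 (1.79 ± 0.25). The lowest C. chinensis library stood 1.92-fold above the highest E. ulmoides library for nlp-29 and 1.87-fold for nlp-28. nlp-27 of the same cluster averaged 205 ± 34.9 FPKM with C. chinensis and 82.8 ± 13.8 with E. ulmoides. The caenacin cnc-10, which lies elsewhere on chromosome V, averaged 25.4 ± 3.05 and 11 ± 1.78 FPKM.

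Other defence families followed the same direction to different degrees. Saposin-like genes, some of whose products permeabilize bacterial membranes, were called higher in 13 of 17 tested (23 in the table, median 0.86), and none was called lower. Besides spp-9 and spp-12, spp-3 averaged 45 ± 6.71 FPKM with C. chinensis and 17.7 ± 5.09 with E. ulmoides. spp-15, of which 42.9% of the exons overlap C48E7.6, averaged 92 ± 16 and 42.6 ± 8.04. Of the lysozymes, which break down bacterial cell walls, 6 of 10 tested were called higher (median 0.96). lys-7, a lysozyme raised by reduced insulin signalling, had 1182, 643, 831, 425 and 948 FPKM with C. chinensis, against 324, 279, 203, 346 and 329 with E. ulmoides, and 136 ± 73.2 with DMSO (log2 fold change 1.13 ± 0.33, adjusted p = 0.00572). The groups did not overlap, although replicate 4 of C. chinensis was close to the highest E. ulmoides value. The invertebrate-type lysozymes ilys-2 and ilys-3 were weakly expressed, with 3.86 ± 0.862 and 3.87 ± 0.641 FPKM with C. chinensis, against 0.972 ± 0.451 and 1.05 ± 0.47 with E. ulmoides. lys-1 and lys-8 passed the test at 1.02 and 0.89, but their groups overlapped, lys-1 having 46.1, 19.7, 19.3, 9.77 and 30.9 FPKM with C. chinensis, against 12, 9.36, 6.66, 7.96 and 9.72 with E. ulmoides.

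C-type lectins, secreted or membrane-bound sugar-binding proteins of which many answer to infection, were less uniform. Of 264 genes 76 were tested, and 26 were called higher and 1 lower, with a median of 0.30. With quantile normalization 18 were called higher and 4 lower (median 0.06), and with cyclic loess 16 and 5 (median 0.10). clec-146 averaged 189 ± 32 FPKM with C. chinensis and 68.6 ± 8.69 with E. ulmoides (log2 fold change 1.20 ± 0.12). clec-97 averaged 3.35 ± 0.846 FPKM with C. chinensis and 0.551 ± 0.147 with E. ulmoides, but it and 1 other lectin passed the filter through the C. chinensis libraries alone, so their higher level there was a condition of being tested. The lower member was clec-266, with 11.9, 11.8, 15.7, 9.18 and 9.98 FPKM with C. chinensis, against 23.1, 20.7, 21.6, 14.1 and 16.3 with E. ulmoides, and 26.9 ± 7.64 with DMSO (-0.93 ± 0.18). Its groups overlapped in the deposited FPKM, before scaling, with replicate 3 of C. chinensis above replicate 4 of E. ulmoides. Of its exons, 12.2% overlap kqt-1 on the opposite strand. Of 7 tested genes of the p38 kinase PMK-1 and infection response list 5 were called higher, and 3 with quantile normalization or cyclic loess. They were irg-2, irg-5, irg-1 (21.8 ± 4.6 FPKM against 11.2 ± 1.45), irg-7 (8.84 ± 1.85 against 3.74 ± 0.587) and hpo-6 (9.15 ± 1.45 against 4.59 ± 0.241), the last of which lost its call with quantile normalization and cyclic loess. Of the fungus-induced fip and fipr peptides, 7 of 11 tested were called higher, such as fip-6 (1.87 ± 0.27) and fipr-24 (1.61 ± 0.18).

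Several proteases of gut and lysosome were higher with C. chinensis. Of 8 aspartyl proteases tested 5 were called higher (median 0.77), asp-1, asp-2, asp-4, asp-12 and asp-17. asp-4, a cathepsin D-like protease, averaged 157 ± 23.7 FPKM with C. chinensis and 63.9 ± 7.84 with E. ulmoides (1.04 ± 0.10), and asp-1, an intestinal protease, 173 ± 54 and 81.4 ± 11.3. Cathepsin L, encoded by cpl-1, had 731, 730.2, 772, 675 and 984 FPKM with C. chinensis against 389.9, 328, 323, 378 and 304 with E. ulmoides (0.92 ± 0.09, adjusted p = 5.91e-07). The groups were far apart, and replicate 5 stood above the other C. chinensis libraries. Among 6 cathepsin B-like genes tested 3 were called higher, cpr-4, cpr-5 and cpr-6, of which cpr-6 averaged 49.7 ± 8.9 FPKM against 19.9 ± 2.74 and cpr-5 20.1 ± 6.12 against 6.26 ± 1.29. The fourth call of that family went down. cpr-2 had 0.77, 4.39, 2.8, 4.65 and 2.73 FPKM with C. chinensis, against 9.27, 6.6, 5.33, 5.84 and 3.49 with E. ulmoides, and 1.14 ± 0.755 with DMSO (-1.20 ± 0.34, adjusted p = 0.00509), with overlapping groups. Of 12 astacin metalloproteases tested 6 were called higher (4 with quantile normalization or cyclic loess), the highest being nas-11 with 60.8 ± 16.2 FPKM against 12.8 ± 2.3 (1.93 ± 0.23). Of the 12, 1 had passed the filter through the C. chinensis libraries alone.

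Lysosomal enzymes had higher calls, while the proton pump and autophagy had few. Of 35 lysosomal hydrolases and membrane proteins tested 15 were called higher and none lower (median 0.51), such as the glucocerebrosidase gene gba-3 with 9.5 ± 1.29 FPKM with C. chinensis and 3.22 ± 0.738 with E. ulmoides. Of 21 subunits of the vacuolar proton pump only vha-5 (1.20 ± 0.15) and vha-6 (0.69 ± 0.08) were called, both of them forms of the membrane subunit a, and vha-6, the intestinal form, lost the call with quantile normalization and cyclic loess, each of which called 4 subunits higher. Of 28 autophagy genes 1 was called (3 with quantile normalization or cyclic loess), hlh-30, the worm counterpart of the lysosomal regulator TFEB. It had 56.5, 49.6, 53.2, 49.8 and 61.7 FPKM with C. chinensis, against 26.9, 27.8, 27.3, 29.7 and 27.3 with E. ulmoides (0.70 ± 0.07, adjusted p = 6.38e-07). The groups did not overlap, and the median of the autophagy list was -0.06, near that of all genes.

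Yolk protein genes were higher with C. chinensis. Vitellogenins are made in the intestine, carry lipid to the oocytes and go on being made in old worms after egg laying has ended. Of 6 genes 4 were tested, and all 4 were called higher with groups that did not overlap (median 1.51). Over all genes 15.9% were called higher and 35.7% were separated in that direction. vit-6 had 609.7, 522, 427, 459.8 and 766 FPKM with C. chinensis, against 136, 117, 102, 190.1 and 156 with E. ulmoides, and 119.6 ± 44.6 with DMSO (1.74 ± 0.23, adjusted p = 4.52e-06). vit-2, the strongest expressed, had 1418, 1122, 1149.5, 1023 and 1608 FPKM against 425, 351, 296, 495 and 468 (1.39 ± 0.20). For both the C. chinensis libraries lay more than 2-fold above the highest E. ulmoides library. vit-5 averaged 257 ± 111 FPKM with C. chinensis and 65.8 ± 12.7 with E. ulmoides, and vit-1 4.7 ± 1.13 and 1.41 ± 0.225. Vitellogenin genes are near-identical in parts, so reads may be split between them.

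Most of the lipid carriers tested were called higher, and some of the lipid-modifying enzymes. Of the 8 far genes all were tested and 7 were called higher (median 1.04). After far-3 the next by p was far-6, with 435 ± 61.8 FPKM with C. chinensis and 206 ± 22 with E. ulmoides, and then far-8 with 69.6 ± 12.6 and 24.3 ± 3.51. Of 8 intracellular lipid binding genes tested 5 were called higher. lbp-2 was among the strongest expressed genes of all, at 1583, 1566, 2307, 1514 and 2315 FPKM with C. chinensis against 833, 639, 635, 829 and 655 with E. ulmoides (1.10 ± 0.12), with no overlap. lbp-3 averaged 92.1 ± 18.5 and 32 ± 5.43 FPKM. Of 18 desaturases and elongases tested 6 were called higher and 1 lower. fat-5, which desaturates palmitic acid, had 66.7, 45, 76.3, 46.7 and 73.2 FPKM with C. chinensis, against 18, 16.1, 16.4, 18.4 and 11.6 with E. ulmoides (1.64 ± 0.17, adjusted p = 7.9e-07). Fatty acid synthase, fasn-1, averaged 23.6 ± 2.37 and 10.3 ± 0.709 FPKM. The desaturases of polyunsaturated fat fat-2 and fat-3 averaged 455 ± 86.4 and 80.6 ± 13.5 FPKM with C. chinensis, against 208 ± 18.6 and 36.1 ± 3.48 with E. ulmoides. The lower member was elo-1, an elongase of polyunsaturated fatty acids, with 259.8 ± 25.6 FPKM with C. chinensis and 360.3 ± 14.5 with E. ulmoides (-0.73 ± 0.08), and it lost the call without further scaling, with quantile normalization and with cyclic loess.

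Genes of fat breakdown had higher calls in peroxisome and mitochondrion. Of 27 peroxisome genes tested 16 were called higher (median 0.72), and 10 with quantile normalization or cyclic loess (medians 0.47 and 0.46). Of 50 genes of beta-oxidation 15 were called higher (median 0.18), and none of either list was called lower. ctl-2, the peroxisomal catalase, had 53.5, 54.9, 63.4, 49.7 and 64.8 FPKM with C. chinensis, against 28.1, 25.1, 24.7, 28.1 and 25.3 with E. ulmoides (0.86 ± 0.07, adjusted p = 4.87e-07), with no overlap. acox-1.1, an acyl-CoA oxidase of ascaroside pheromone synthesis, averaged 37.4 ± 6.59 and 16.3 ± 1.37 FPKM, and the peroxisomal transporter pmp-4 14 ± 1.86 and 5.96 ± 0.258. Of the beta-oxidation list, the carnitine palmitoyltransferases cpt-3 and cpt-4 were higher by 1.43 ± 0.14 and 1.33 ± 0.11 on the log2 scale. acdh-1, an acyl-CoA dehydrogenase that answers to vitamin B12, averaged 46.7 ± 7.36 FPKM with C. chinensis and 21.5 ± 3.79 with E. ulmoides.

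Detoxification genes of both phases were higher with C. chinensis. Cytochromes P450 oxidize foreign compounds, transferases then attach sugar or glutathione, and P-glycoproteins export the product. Of 40 cytochromes P450 tested 25 were called higher (14 with quantile normalization and 13 with cyclic loess), and of 43 UDP-glucuronosyl transferases 27 (11 and 9). No member of either family was called lower, and the medians were 0.70 and 0.71. Of those tested, 6 cytochromes P450 and 2 UDP-glucuronosyl transferases had passed the filter through the C. chinensis libraries alone. cyp-14A5 had 118, 53.6, 79.5, 50.1 and 111 FPKM with C. chinensis, against 19, 16.5, 13.8, 21.5 and 17.6 with E. ulmoides, and 13.2 ± 4.65 with DMSO (1.87 ± 0.24, adjusted p = 4.25e-06), with no overlap. cyp-25A3 averaged 15.2 ± 2.51 FPKM with C. chinensis and 5.55 ± 0.88 with E. ulmoides. Of the transferases, ugt-25 averaged 14.2 ± 5.06 and 3.29 ± 0.322 FPKM, and ugt-41 4.74 ± 0.843 and 1.72 ± 0.139. Glutathione S-transferases were called higher in 9 of 25 tested (median 0.54), and with quantile normalization or cyclic loess 1 was called lower. Of the 25, 2 had passed the filter through the C. chinensis libraries alone. gst-4, the common reporter of the oxidative stress regulator SKN-1, had 15.1, 10.2, 11.2, 9.33 and 15.5 FPKM with C. chinensis, against 4.15, 3.63, 3.24, 4.3 and 3.46 with E. ulmoides (1.33 ± 0.16, adjusted p = 2.39e-06). All 5 C. chinensis values of gst-4 were above 9 FPKM and all 5 E. ulmoides values below 5. gst-24 averaged 103 ± 26.6 and 38.9 ± 6.2 FPKM. P-glycoproteins were called higher in 7 of 12 (3 with quantile normalization or cyclic loess), all 12 with groups that did not overlap, pgp-8 leading with 1.27 ± 0.15. Such separation with C. chinensis above was found in 35.7% of all genes. Of the 12, 1 had passed the filter through the C. chinensis libraries alone. Of 25 short-chain dehydrogenases tested 9 were called higher, such as dhs-5 (17.6 ± 3.57 FPKM against 6.5 ± 0.763), and 1 lower, dhs-11 (47 ± 4.57 against 70.2 ± 5.24), whose call was lost without further scaling and with quantile normalization or cyclic loess.

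Many muscle genes were higher with C. chinensis. Of 29 contractile genes of the body wall tested 16 were called higher (median 0.63), of 20 dense body and attachment genes 11 (median 0.61) and of 11 pharyngeal genes 5 (median 0.58), with none lower. With quantile normalization and cyclic loess the attachment list had 7 and 7 higher calls and the pharyngeal list 3 and 2. unc-54, the major myosin heavy chain, had 27.4, 19.5, 17.6, 15.5 and 31.8 FPKM with C. chinensis, against 8.12, 7.37, 6.55, 7.41 and 7.13 with E. ulmoides, and 6.28 ± 1.67 with DMSO (1.26 ± 0.18, adjusted p = 9.24e-06). unc-15, which encodes paramyosin of the thick filament core, had 50.7, 38.1, 36, 32.5 and 55.3 FPKM against 18.9, 18.7, 16, 16.4 and 17.5 (0.98 ± 0.13). For both the E. ulmoides libraries were close together and below all C. chinensis libraries. The myosin light chain mlc-1 averaged 38.8 ± 6.55 and 17.7 ± 0.718 FPKM and troponin T of tnt-3 25.5 ± 1.79 and 12.9 ± 0.91. Of the attachment genes, cpna-1, a copine of the dense body, averaged 18.1 ± 2.68 FPKM with C. chinensis and 7.41 ± 0.455 with E. ulmoides, and lim-9 22.1 ± 2.95 and 10.5 ± 0.521. The pharyngeal myosins myo-1 and myo-2 were higher by 0.97 and 0.72 on the log2 scale, and myo-2 lost the call with quantile normalization and cyclic loess.

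Genes of the extracellular matrix around these muscles were higher as well. Of 16 basement membrane genes tested 11 were called higher (7 with quantile normalization or cyclic loess), all 16 had groups that did not overlap, and the median was 0.69. All C. chinensis values lay above all E. ulmoides values in 35.7% of all genes. let-2 and emb-9 encode the chains of collagen IV, which assemble in one molecule. let-2 had 59, 43.7, 47.3, 38.6 and 66.2 FPKM with C. chinensis, against 14.8, 13.1, 12.4, 18.8 and 15.7 with E. ulmoides (1.48 ± 0.16, adjusted p = 9.92e-07), and emb-9 had 43.1, 31, 36.2, 30.8 and 48.1 FPKM against 11.5, 9.35, 9.79, 14.5 and 11.7 (1.44 ± 0.16). Both chains were lowest in replicate 4 of the C. chinensis libraries and highest in replicate 5. cle-1, a collagen XVIII, averaged 45.4 ± 7.3 and 20.5 ± 1.76 FPKM, and nidogen, nid-1, 5.92 ± 0.375 and 2.52 ± 0.22, with nid-1 losing its call with quantile normalization and cyclic loess. Of 159 cuticle collagens 47 were tested, and 28 were called higher and 1 lower, col-63 (median 0.88). With quantile normalization or cyclic loess 7 were called lower, and 7 of the 47 had passed the filter through the C. chinensis libraries alone. col-106 averaged 183 ± 61.1 FPKM with C. chinensis and 48.1 ± 6.87 with E. ulmoides. col-63 was weak, at 1.1 ± 0.316 and 1.68 ± 0.152 FPKM (-0.64 ± 0.15), and without replicate 5 of C. chinensis its log2 fold change was -0.55 and no longer called. Of 7 cuticle genes of the dumpy, roller, blister and squat classes tested 1 was called, dpy-18, a subunit of the collagen prolyl hydroxylase (0.74 ± 0.09).

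Small secreted proteins of less known function were also higher. Of 53 transthyretin-related genes tested 32 were called higher and none lower (median 0.68), and 1 was called lower with cyclic loess. ttr-47 averaged 186 ± 39.2 FPKM with C. chinensis and 68 ± 12.5 with E. ulmoides, and ttr-35 23.2 ± 4.41 and 8.11 ± 0.624. Of 17 nspc peptides tested 14 were called higher (median 1.05), among them nspc-9 (1.32 ± 0.26). Of the 17, 1 had passed the filter through the C. chinensis libraries alone. The nspc genes are near-identical copies, so their single values are uncertain.

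Of the lists of neuronal genes, the flp list had a larger share of higher calls than the 15.9% of all genes. Of 38 flp neuropeptide and processing genes tested 10 were called higher (median 0.48), of 42 other nlp genes 8 (median 0.36), of 23 synaptic genes 2 (median 0.45) and of 9 touch receptor genes 2 (median 0.34), the shares of the last 3 lying near or under that background. With quantile normalization these lists had 9, 5, 1 and 1 higher calls (medians 0.28, 0.14, 0.17 and 0.04), and with cyclic loess 10, 4, 1 and 0. In the nlp and in the synaptic list 1 gene each had passed the filter through the C. chinensis libraries alone. flp-6 had 21.4, 21.2, 27.6, 21.8 and 25.2 FPKM with C. chinensis, against 12.8, 11.4, 11.1, 10.7 and 11 with E. ulmoides (0.76 ± 0.08, adjusted p = 9.84e-07), with no overlap. nlp-40, an intestinal peptide that times defecation, averaged 285 ± 48.6 and 138 ± 16.8 FPKM. The peptide-amidating enzymes pamn-1 and pgal-1 averaged 9.92 ± 1.1 and 40.4 ± 3.5 FPKM with C. chinensis, against 4.8 ± 0.313 and 22.2 ± 1.7 with E. ulmoides. pgal-1 lay at the fold limit (0.60) and fell under it, to values of 0.55 to 0.58, without replicate 5 of C. chinensis or replicate 3 or 5 of E. ulmoides. The 2 synaptic calls were snt-1, synaptotagmin (4.13 ± 0.457 FPKM against 1.98 ± 0.346), and rab-3 (5.93 ± 0.846 against 3.08 ± 0.527), and the call of rab-3 was lost without replicate 5 of C. chinensis (0.57), replicate 3 (0.55) or replicate 4 (0.55) of E. ulmoides. Of the touch receptor genes, mec-5, an extracellular collagen, averaged 10.8 ± 1.43 and 5.03 ± 0.664 FPKM and mec-17, a tubulin acetyltransferase, 4.73 ± 0.998 and 1.89 ± 0.311. The tubulins mec-7 and mec-12 had groups that did not overlap but log2 fold changes of 0.43 ± 0.12 and 0.47 ± 0.14, under the fold limit. All of pamn-1, snt-1, rab-3 and mec-5 lost their calls with quantile normalization and cyclic loess, and mec-17 with cyclic loess. Of 20 sensory cilium genes tested 1 was called, che-10 at 2.41 ± 0.383 FPKM against 1.03 ± 0.22, and the list's median was 0.06. With quantile normalization and cyclic loess che-10 lost its call, 3 and 2 others were called lower, and the median was -0.13 and -0.15.

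Lower genes changed less, and W09B7.2 was alone in exceeding 4-fold. W09B7.2 had 1.61, 3.38, 2.49, 2.79 and 2.33 FPKM with C. chinensis, against 8.82, 44.3, 3.95, 9.98 and 15 with E. ulmoides, and 3.7 ± 0.599 with DMSO (-2.29 ± 0.40, adjusted p = 6.83e-05). The E. ulmoides libraries ran over an 11.2-fold range, with replicate 2 highest, and replicate 3 just above the highest C. chinensis value. Without the 4 deepest libraries the log2 fold change was -2.97. The DMSO level lay near the C. chinensis level, not near that of E. ulmoides. C07G1.7 had 1.59, 2.78, 2.69, 1.7 and 2.21 FPKM with C. chinensis, against 5.23, 6.26, 5.04, 3.81 and 4.06 with E. ulmoides, and 3.56 ± 0.687 with DMSO between them (-1.22 ± 0.16).

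Several of the other strongly lower genes belong to the F-box and histone families, and their DMSO level lay with E. ulmoides. fbxa-140 encodes an F-box protein, a family that hands substrates to the ubiquitin ligase. It had 13.8, 16.6, 19.3, 17.8 and 13.8 FPKM with C. chinensis, against 32.9, 32.9, 34.5, 27.7 and 31.9 with E. ulmoides, and 34 ± 4.55 with DMSO (-1.21 ± 0.11, adjusted p = 4.87e-07). fbxa-108 had 41.3, 48.2, 48.1, 52.4 and 33.5 FPKM against 78.2, 75.6, 81.2, 65.4 and 80.9 (-1.02 ± 0.11), and fbxc-45 averaged 33.4 ± 3.95 and 57.5 ± 2.11. These 3 belong to a set of 15 lower genes chosen for the largest change without overlap, so lack of overlap was a condition of being chosen. The histone gene his-60 had 26.1, 25.7, 31.9, 21.2 and 22 FPKM with C. chinensis, against 52.8, 48.8, 51.1, 42.5 and 48.5 with E. ulmoides, and 50.6 ± 7.47 with DMSO (-1.18 ± 0.11, adjusted p = 4.87e-07). his-73 averaged 15.5 ± 2.83 and 28.8 ± 2.69 FPKM (-1.13 ± 0.12), but it lies wholly within W09H1.4 on the same strand, which was not called at -0.36, so its value is uncertain.

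Of the remaining genes among the 15 called lower with the largest change and no overlap, most are known only by their sequence names. Called genes with overlapping groups are left out of this set, such as 21ur-14978 (-1.50) and F16A11.13 (-1.31). Y43B11AR.3 averaged 43.5 ± 7.3 FPKM with C. chinensis and 82.8 ± 5.73 with E. ulmoides, and K11D12.12 36.4 ± 3.25 and 67.6 ± 4.53. F40E3.7 averaged 5.26 ± 0.695 and 9.55 ± 0.571 FPKM, and H11L12.1 27.9 ± 4.38 and 46.9 ± 3.69. These 4 had DMSO means of 80.3 ± 7.03, 61.6 ± 7.87, 9.52 ± 1.23 and 41.6 ± 4.26. R02E4.3 rested on 11 to 54 fragments per library with C. chinensis and 34 to 136 with E. ulmoides (-1.18 ± 0.25). Y60A3A.29 lies within chk-2 on the opposite strand, EEED8.18 shares 81.2% of its exons with EEED8.13, and F14D2.14 shares 32.8% with F14D2.8, which was itself called lower at -0.94. The partners of EEED8.18 and F14D2.14 lie on the same strand, and for Y60A3A.29 it is not stated that strand was used in counting. The log2 fold changes of these 3, -1.12, -1.0 and -1.11, are therefore uncertain.

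Lists of germline, replication and ribosome genes had lower calls with C. chinensis and no higher one, in numbers that depended on the scaling. Of 45 germline and germ granule genes tested 13 were called lower and none higher (median -0.47), of 41 DNA replication genes 14 (median -0.50), of 25 ribosome biogenesis genes 9 (median -0.53), of 79 cytosolic ribosomal proteins 20 (median -0.51) and of 63 mitochondrial ribosomal proteins 22 (median -0.55). Over all genes tested, 6.23% were called lower. The median stayed below 0 for each of these lists with every scaling tried. The lower calls numbered 12, 12, 7, 12 and 19 in the same order with median of ratios, but fewer with the other scalings. With no further scaling, quantile normalization or cyclic loess the lower calls were 1, 3 and 1 for the germline list, 0 each for DNA replication, 1, 3 and 0 for ribosome biogenesis and 0 each for both kinds of ribosomal protein. The genes of these lists are mostly strongly expressed, where the median of all genes was also below 0.

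In the germline list coh-4, a meiotic cohesin, lost its call only with cyclic loess among the scalings. It had 30.5, 33.5, 30.2, 35.4 and 28.3 FPKM with C. chinensis, against 44.6, 49.1, 50.1, 47.7 and 50 with E. ulmoides, and 46.1 ± 2.45 with DMSO (-0.85 ± 0.08, adjusted p = 4.97e-07), with no overlap, and shares 15.9% of its exons with Y45G5AM.7. htp-3, of the axis of meiotic chromosomes, had 90, 105, 91.5, 111 and 81.1 FPKM against 129.7, 144, 148, 144 and 149 (-0.83 ± 0.09). htp-2 averaged 128 ± 8.91 and 174 ± 5.93 FPKM, and zim-3, a zinc finger protein of meiotic pairing centres, 36.9 ± 4.03 and 53.1 ± 2.11. The oocyte and maternal list had 2 lower calls among 39, pie-1 and cpg-3 (median -0.34), and none on the deposited FPKM, with quantile normalization or with cyclic loess. Its share of lower calls lay under the 6.23% of all genes. pie-1 averaged 58.6 ± 8.12 FPKM with C. chinensis and 79.1 ± 4.82 with E. ulmoides, and without replicate 3 of C. chinensis its log2 fold change was -0.57 and not called. cpg-3, an eggshell proteoglycan, lay at the fold limit (-0.58) and lost the call, at -0.52 to -0.58, without any one of C. chinensis replicates 3, 4 or 5 or E. ulmoides replicates 1, 2 or 5. Of 78 sperm genes tested 1 was called, ssp-37 at 29.2 ± 6.59 FPKM against 15.8 ± 3.94, whose call was lost at 0.57 without replicate 3 of C. chinensis, 0.51 without replicate 2 and 0.55 without replicate 3 of E. ulmoides, and the list's median was 0.02. With quantile normalization 1 sperm gene was called higher and 4 lower, and with cyclic loess 5 and 3.

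Of the replication genes, orc-4 of the origin recognition complex had 39.4, 40.1, 37.3, 40.9 and 33.7 FPKM with C. chinensis, against 56.3, 52.1, 55.3, 54 and 57.9 with E. ulmoides (-0.77 ± 0.07, adjusted p = 5.86e-07). cdc-6, which loads the helicase, averaged 61.8 ± 6.18 and 85 ± 3.68 FPKM, and sld-5 of the GINS complex 42.6 ± 2.8 and 57.6 ± 2.85. All 3 had groups that did not overlap and DMSO means of 50.5 ± 3.7, 84.1 ± 4.46 and 53 ± 3.84. Histones gave 10 lower and 2 higher calls among 47 tested (median -0.34), and 17 and 18 lower calls with quantile normalization and cyclic loess. Over all genes 6.23% were called lower and 15.9% higher. hcp-3, the centromeric histone H3, averaged 97.6 ± 6.67 FPKM with C. chinensis and 145 ± 10 with E. ulmoides, and his-38, higher like hil-8, 3.72 ± 0.625 and 1.68 ± 0.451, with its call lost with quantile normalization and cyclic loess.

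Of the ribosome lists, mrps-2, a protein of the small mitochondrial subunit, had 79.7, 85.3, 91.2, 94 and 82.2 FPKM with C. chinensis, against 130.5, 124, 132, 118.8 and 135 with E. ulmoides, and 120.5 ± 3.15 with DMSO (-0.81 ± 0.06, adjusted p = 3.01e-07). mrps-11 averaged 181 ± 18.3 and 262 ± 9.39 FPKM. rps-12 of the cytosolic small subunit had 3308, 3814, 3630.3, 3739 and 3465 FPKM against 5635, 4968, 4838, 4603 and 4736 (-0.71 ± 0.08), with no overlap. Of the biogenesis genes, lpd-7, the counterpart of pescadillo, averaged 713 ± 74.5 FPKM with C. chinensis and 1106 ± 57.1 with E. ulmoides, nst-1, nucleostemin, 337 ± 29 and 466 ± 33.1, and puf-12 197 ± 20.6 and 287 ± 11.9. lpd-7 kept its call with every scaling but cyclic loess. Other lists of gene expression had fewer lower calls, with 6 of 39 translation factors, 6 of 43 splicing genes, 2 of 32 aminoacyl-tRNA synthetases (mars-1 and yars-2), 2 of 38 nuclear pore genes (npp-9 and npp-24) and 1 of 33 proteasome subunits (rpn-6.1). The synthetase, nuclear pore and proteasome lists lay near or under the 6.23% called lower over all genes. With median of ratios the translation and splicing lists had 3 lower calls each, with quantile normalization 0 and 2, and on the deposited FPKM or with cyclic loess none of the 5 lists had one. Of these genes, iff-1, the germline form of translation factor eIF5A, averaged 1363 ± 211 and 1926 ± 106 FPKM, and the splicing gene prp-38 67 ± 6.07 and 93.9 ± 9.06. The Argonaute and small RNA list had 1 higher call among 30 tested, sago-1 (21.3 ± 2.11 FPKM against 11 ± 0.793). It had 2 lower calls, ppw-2 and mut-7, of which mut-7 averaged 63.7 ± 6.67 and 90.4 ± 8.42 FPKM. Neither of these 2 was called lower on the deposited FPKM or with cyclic loess. The list's shares of higher and lower calls lay near or under those of all genes (15.9% and 6.23%).

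**Figure D4:**
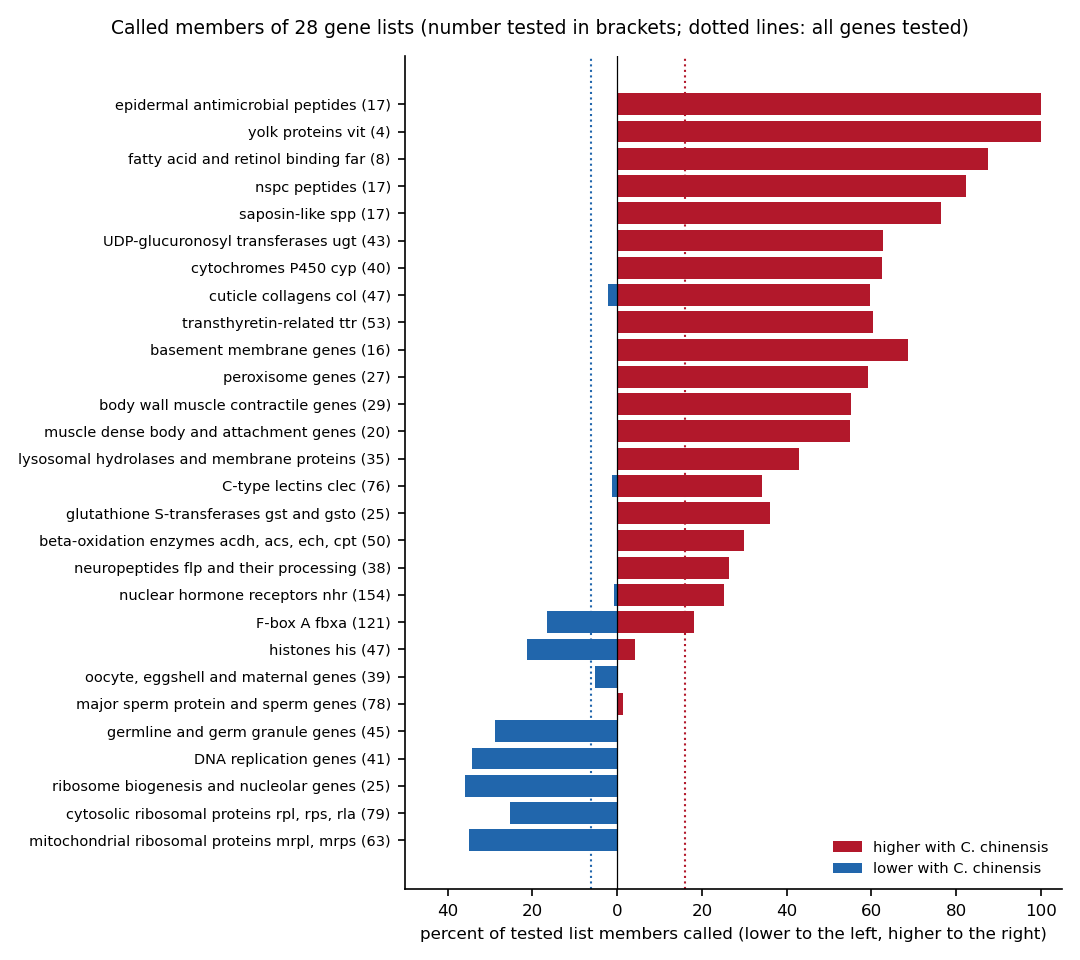
Percent of the tested members of 28 gene lists called higher (red, to the right of 0) or lower (blue, to the left of 0) with C. chinensis, with the number tested in brackets and dotted lines at the 15.9% higher and 6.23% lower of all genes tested. The antimicrobial peptides and yolk proteins reach 100% higher, and the germline, replication and ribosome lists have lower calls with no higher one.

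Few genes of energy metabolism were called, and for the mitochondrially encoded genes the number depended on the scaling. Of 25 genes of the TCA and glyoxylate cycles 1 was called, icl-1, the glyoxylate cycle enzyme that lets worms turn fat into sugar. It had 284, 233, 229, 209 and 328 FPKM with C. chinensis, against 107, 96.5, 98.7, 116 and 103 with E. ulmoides (1.03 ± 0.10, adjusted p = 6.38e-07), with no overlap. Of 24 genes of glycolysis and gluconeogenesis 2 were called higher, pyk-2 and pck-1, the entry enzyme of gluconeogenesis, which had 30.7 ± 8.11 FPKM against 10.9 ± 1.14 (1.18 ± 0.17). The 1 lower call, gpd-4, lay at the fold limit (-0.60) and was lost with each of the other 4 scalings (-0.57 to -0.25) and without replicate 1 (-0.56) or replicate 3 (-0.53) of C. chinensis. Of 42 nuclear genes of the respiratory chain 2 were called lower, nduf-2.2 (85.4 ± 8.17 FPKM against 118.5 ± 4.57) and ucr-2.3 (145 ± 11.5 against 194 ± 6.72), neither of them called on the deposited FPKM, and the list's median of -0.35 became 0.01 with cyclic loess. The list's share of lower calls lay under the 6.23% of all genes. Of 13 mitochondrially encoded genes tested 1 was called higher (median 0.255). Without further scaling 5 were called higher (median 0.501), with quantile normalization 4 (0.435) and with cyclic loess 7 (0.587). The gene called here was nduo-2, with 49.1, 52.2, 102, 35.4 and 28.3 FPKM with C. chinensis, against 6.86, 27.1, 14.6, 30.6 and 29.8 with E. ulmoides (1.07 ± 0.35). Its groups overlapped, and without the 4 deepest libraries the log2 fold change was 0.59 and not called.

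Stress proteins moved in both directions. Of 14 small heat shock proteins tested 4 were called higher and 1 lower (median 0.49). Besides hsp-43 and hsp-12.2, hsp-17 averaged 32.3 ± 7.32 FPKM with C. chinensis and 12.8 ± 0.993 with E. ulmoides, and hsp-12.3 4.16 ± 0.27 and 1.68 ± 0.544. The lower one was sip-1, a chaperone of oocytes and embryos, with 1908 ± 229 FPKM against 2545 ± 178 (-0.67 ± 0.09), and it was not called on the deposited FPKM (-0.42), with quantile normalization (-0.32), with cyclic loess (-0.31) or without replicate 3 of C. chinensis (-0.57). Heat-inducible hsp-16.2 and hsp-70 were low in both groups and not called, hsp-16.2 averaging 15.1 ± 2.76 and 9 ± 1.53 FPKM and hsp-70 4.85 ± 0.967 and 3.61 ± 0.334. hsp-12.6, a small heat shock protein raised by the insulin-pathway factor DAF-16, averaged 19.3 ± 4.46 and 10.7 ± 1.7 FPKM (0.57 ± 0.22), under the fold limit. daf-21, the worm HSP90, averaged 2487 ± 275 FPKM with C. chinensis and 2925 ± 135 with E. ulmoides (-0.49 ± 0.08), also under it. Of the oxidative stress list, 4 of 23 tested were called higher (gpx-5, ctl-2, ctl-1 and sod-3) and 1 lower (median 0.03). The share of higher calls lay near the 15.9% of all genes. The cytosolic catalase ctl-1 averaged 20.6 ± 5.88 and 8.48 ± 1.19 FPKM, and the mitochondrial superoxide dismutase sod-3 2.85 ± 0.473 and 1.24 ± 0.305, sod-3 losing its call with quantile normalization and cyclic loess. The lower one was the thioredoxin reductase trxr-2 (14.6 ± 1.61 FPKM against 18.9 ± 1.67, -0.61 ± 0.09), whose call was lost on the deposited FPKM (-0.37), with median of ratios (-0.58) and, at -0.53 to -0.58, without replicate 3 or 5 of C. chinensis or replicate 5 of E. ulmoides.

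Metal-binding genes included both ferritins. Of 15 tested 5 were called higher (ftn-1, ftn-2, mtl-2, cdr-4 and cdf-2) and 1 lower. ftn-2 had 246, 233, 287, 211 and 295 FPKM with C. chinensis, against 136, 112, 112, 137 and 118.7 with E. ulmoides (0.79 ± 0.09, adjusted p = 1.02e-06), and ftn-1, the intestinal iron-regulated form, had 81.5, 70.5, 127, 64.4 and 101 FPKM against 48.2, 35.4, 38.8, 51.9 and 39.9 (0.76 ± 0.16). Neither overlapped between the groups. The metallothionein mtl-1 was not called, with 85.6 ± 22.2 and 56.4 ± 12 FPKM and overlapping groups. The lower call was pcs-1, phytochelatin synthase, at 22.6 ± 1.14 FPKM against 29.4 ± 1.69 (-0.62 ± 0.06), which was not called with any of the other 4 scalings (-0.58 to -0.37) or without replicate 5 of C. chinensis (-0.58).

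Insulin-like peptides, which bind the single insulin receptor of the worm as agonists or antagonists, were called in both directions. Of 26 tested 7 were higher and 3 lower, and 5 and 5 with quantile normalization and 3 and 5 with cyclic loess. Of the 26, 1 had passed the filter through the C. chinensis libraries alone. ins-7, an agonist made in the intestine, had 118.6, 58, 88.4, 39 and 79.6 FPKM with C. chinensis, against 28.9, 23.3, 20.9, 26.8 and 24.2 with E. ulmoides, and 25.1 ± 7.53 with DMSO (1.27 ± 0.22, adjusted p = 7.6e-05), with no overlap. ins-8 rested on 18 to 52 fragments with C. chinensis and 0 to 18 with E. ulmoides. ins-23 was the strongest lower peptide, with 5.32, 11.3, 22, 16.9 and 8.14 FPKM with C. chinensis, against 27.8, 23, 25.5, 19.6 and 18.1 with E. ulmoides, and 33.4 ± 8.11 with DMSO (-1.20 ± 0.27, adjusted p = 0.000876). In the deposited FPKM the groups overlapped, since replicate 3 of C. chinensis lay above replicates 4 and 5 of E. ulmoides. The scaling used in the test lowered that C. chinensis library (log2 factor 0.25) and raised those E. ulmoides libraries (-0.09 and -0.12). Overlap after that scaling was not counted. The lower calls of ins-20 and ins-22, at -0.65 and -0.62, were lost without replicate 1 of C. chinensis (-0.38 and -0.42) and without the 4 deepest libraries (-0.63 and -0.56), and that of ins-22 also without replicate 2 of either extract (-0.53 each). Of 5 dod genes downstream of DAF-16 tested 3 were called higher, dod-3, dod-6 and dod-23, the last at 90.4 ± 22 FPKM against 38.1 ± 2.89.

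Among large regulatory families the nuclear hormone receptors had mostly higher calls and the F-box genes were mixed. Of 281 receptors 154 were tested, 39 were called higher and 1 lower, and 124 had all C. chinensis values above all E. ulmoides values (median 0.48). Over all genes 35.7% were separated in that direction. With quantile normalization 6 receptors and with cyclic loess 5 were called higher. Of the 154, 4 had passed the filter through the C. chinensis libraries alone. nhr-14 averaged 13.5 ± 2.29 FPKM with C. chinensis and 5.99 ± 0.67 with E. ulmoides, and nhr-3 24.3 ± 2.29 and 12.5 ± 0.564. The lower one was nhr-86 at 38.4 ± 2.81 and 53.8 ± 1.87 FPKM, lost without further scaling and with quantile normalization or cyclic loess. Of 121 F-box A genes tested 22 were called higher and 20 lower (median 0.18), which became 3 and 25 with quantile normalization and 49 and 3 without further scaling. The share of higher calls lay near the 15.9% of all genes, while 6.23% of all genes were lower. Of the 121, 2 had passed the filter through the C. chinensis libraries alone. fbxa-182 (8.95 ± 1.36 FPKM against 3.53 ± 0.634) and fbxa-60 (39.8 ± 7.09 against 17.3 ± 2.5) were among the higher ones. The related F-box B, F-box C, MATH and BATH genes had 8 higher and 4 lower calls among 87 (median -0.17), which became 5 and 15 with quantile normalization and 4 and 13 with cyclic loess. Before these changes both shares lay under those of all genes. Of the 87, 2 had passed the filter through the C. chinensis libraries alone. The 4 lower ones were bath-5, bath-28, bath-43 and fbxc-45. Of 30 hedgehog-related and patched-related genes tested 11 were called higher and 1 lower (9 and 2 with quantile normalization or cyclic loess). Of the 30, 4 had passed the filter through the C. chinensis libraries alone, so their higher level there was a condition of being tested. ptr-8, a patched-related gene, averaged 20.1 ± 2.39 FPKM with C. chinensis and 6.95 ± 0.7 with E. ulmoides (1.23 ± 0.10), and grl-10, a hedgehog-related one, was lower at 8.65 ± 2.08 against 14.6 ± 1.89 (-0.98 ± 0.15).

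Of the 6 nuclear chromosomes, X had the largest share of genes called higher with C. chinensis. Of 1691 X-linked genes tested 505 were called higher (29.9%) and 18 lower (1.06%), against 13.9% and 7.0% of the 11655 autosomal genes. The median log2 fold change was 0.41 on X and -0.08 on the autosomes, where it ran from -0.20 on III to 0.18 on V. The X median was 0.63 on the deposited FPKM, 0.45 with median of ratios, and 0.20 or 0.21 with cyclic loess and quantile normalization. In genes with a mean of 20 to 50 FPKM it was 0.37 on X (190 genes) and -0.30 on the autosomes, and in genes of 50 to 100 FPKM 0.36 (65 genes) and -0.37. X-linked genes took 5.95% to 7.43% of all fragments with C. chinensis, 3.80% to 4.22% with E. ulmoides and 3.81% to 4.23% with DMSO. No C. chinensis library overlapped with an E. ulmoides library in that share. As background, the X chromosome of C. elegans is largely silent in the germ line, so its transcripts come mainly from somatic cells and oocytes. No test was made of the difference between the chromosomes, because genes are not replicates.

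**Figure D5:**
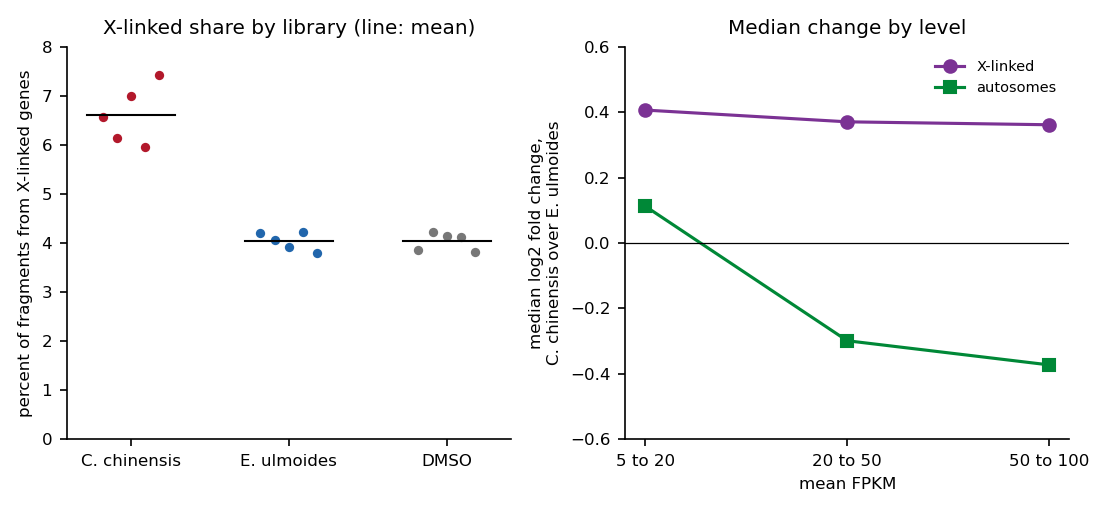
Left, the percent of each library's fragments that fell on X-linked genes, with a line at the group mean, where C. chinensis libraries lie at 5.95% to 7.43% and E. ulmoides libraries at 3.80% to 4.22%. Right, the median log2 fold change (C. chinensis over E. ulmoides) of X-linked and autosomal genes in 3 classes of mean FPKM, which lies between 0.36 and 0.41 on X and is below 0 on the autosomes above 20 FPKM.

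The study names further genes, not all of which are covered here. Of those described in this paragraph, several were called higher with C. chinensis and 3 lower. F23D12.11 averaged 39.4 ± 12.4 FPKM with C. chinensis and 7.92 ± 2.12 with E. ulmoides, F37H8.5 71.5 ± 24.6 and 14.6 ± 3.72, and F55H12.4 44.6 ± 11.6 and 9.24 ± 1.93. F48C1.9 had 244, 203, 388, 184 and 262 FPKM against 74.6, 48.7, 53.5, 70.5 and 40.7, and 32.1 ± 12.8 with DMSO (1.88 ± 0.23). ZK970.7 averaged 36 ± 14.1 and 7.53 ± 1.3 FPKM, T19B10.2 67.3 ± 20.9 and 16.2 ± 1.98, and the collagen col-8 41.4 ± 26.3 and 7.97 ± 1.61. These 7 genes were called higher and had groups that did not overlap. Of the lower ones, F13E9.15 had 7.66, 18.9, 23.6, 25.2 and 10.7 FPKM with C. chinensis, against 31, 35.3, 37.1, 25.1 and 22.9 with E. ulmoides, and 39 ± 11.3 with DMSO (-1.15 ± 0.28), F59A7.7 had a log2 fold change of -0.99 and F28A10.11 one of -0.82. These 3 were called lower with groups that overlapped in the deposited FPKM, before scaling. unc-43, the CaM kinase II of neurons and muscle, averaged 45 ± 3.91 and 22.6 ± 1.38 FPKM and was called higher at 0.73. kin-2, the regulatory subunit of protein kinase A, averaged 45 ± 4.55 and 25.3 ± 1.71 FPKM and stayed under the fold limit at 0.57 ± 0.07. The customary reference genes act-1 and cdc-42 averaged 63.4 ± 6.71 and 191 ± 7.98 FPKM with C. chinensis, against 64.1 ± 3.71 and 189 ± 10.2 with E. ulmoides. After scaling their log2 fold changes were -0.27 ± 0.08 and -0.23 ± 0.06, which turned to 0.06 and 0.13 with cyclic loess, and that of cdc-42 also to 0.02 without further scaling.

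Some genes varied more within a group than between the groups. hsp-16.48, a heat-inducible chaperone, had 1.27, 1.09, 4.02, 1.67 and 1.35 FPKM with C. chinensis, against 54.4, 0.761, 0.818, 9.9 and 0.415 with E. ulmoides. Y45G12C.16 had 2.08 to 9.81 FPKM with C. chinensis, against 57.6 in replicate 4 of E. ulmoides and 1.75 to 2.13 in the other 4 E. ulmoides libraries. nspa-3 ran from 3.49 to 89.3 FPKM with C. chinensis and from 1.68 to 85 with E. ulmoides. B0393.8, a name that the annotation gives to more than one locus, ran from 1.82 to 133 and from 3.62 to 86.4 FPKM, and nspa-7 from 0.928 to 24.3 and from 0.427 to 14.7. 21ur-2124, an annotated piRNA locus, was at 0 in 2 libraries of each extract. None of these was called. At the edge of the filter, the fifth highest FPKM was 1.0007 in D1081.3 and 1.0011 in F46F5.14, which were tested, and 0.9989 in C29E4.10 and 0.9997 in twk-42, which were not.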

How the data were processed

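RNA of whole worms was sequenced in 15 libraries, 5 for each of C. chinensis, E. ulmoides and DMSO, grouped by their deposited labels. The authors aligned paired-end reads to WBcel235 with HISAT2 and deposited one table of FPKM values. The aligner version, the counting tool, the annotation release and the use of strand are not given in the sources used here. The kit named in the labels is not stated to keep strand. The steps between low FPKM values gave each library's fragment total, and with these totals all 26686 genes above 0 came out as whole fragments within 0.001. The other 20220 genes were at 0 in every library.

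The FPKM were scaled by trimmed means of M values without weights (30% of M and 5% of A trimmed), and log2(scaled FPKM + 0.5) was fitted with limma 3.58.1 (lmFit, eBayes with trend) in R 4.3.3 over all 15 libraries. p-values are two-sided, with Benjamini-Hochberg adjustment over the 13427 genes that reached 1 FPKM in 5 or more of the 10 extract libraries. Calls needed an adjusted p under 0.05 together with a change of more than 1.5-fold in either direction. Tables were made with Python 3.11.15, pandas 2.3.3 and numpy 2.4.6. Printed FPKM are the deposited values, unscaled, so their ratios differ from the fitted fold changes, and with 0.5 added the fold changes of low genes are understated. Gene positions and exon overlaps came from Ensembl annotation of WBcel235, used only for genes matched by identifier.

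On simulated data for this comparison (13344 genes, 50 changed at each fold), the fit called 98% of the genes raised 2-fold and 100% of those raised 4-fold, 90% of those set to a fold of 0.5 and 94% of those set to 0.25, with 4 calls among unchanged genes. The simulation changed only 200 genes, evenly up and down, with the same dispersion (0.0127) for every gene. It held no shift between weak and strong genes, so it cannot show how often calls err under such a shift. Genes named are the 15 higher and 15 lower called genes with the largest change and groups that did not overlap, up to 4 called members with the smallest p in each direction of each list described (up to 2 where none was called), genes the study names, those at the edge of the filter, and the 4 with the largest spread among the libraries of each extract. Not all genes that the study names are covered. Other members named to complete a small count were chosen after their values were seen. The members, the 65 gene lists and this rule were chosen with earlier results of these data known. Alternatives covered the scaling, the pseudocount, the filter, the libraries, blocks by replicate number and code number, the test and the fold limits. Cyclic loess was added after seeing the data. Errors (SDs of FPKM, standard errors of log2 fold changes) cover the spread between these pools of worms. A permutation test of 5 against 5 could not go below an exact p of 0.0079.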

Additional observations from a re-analysis of the deposited data

Results flagged for a closer look

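In 398 groups of 5 libraries, the highest or lowest value was checked for a gap to its neighbour of more than 0.71 of the group's range, which chance gives in about 1 group in 20, and 13 groups (3.27%) had one. Among the C. chinensis libraries, replicate 5 was highest for cpl-1 (984 FPKM, gap 0.846 of the range) and for cpt-4 (31.1 FPKM, 0.952), replicate 2 was highest for Y45G12C.16 (9.81 FPKM, 0.816), and replicate 1 was lowest for mtl-1 (49.6 FPKM, 0.764). Replicate 4 of C. chinensis had the most fragments (81833288, 0.803), and replicate 3 the largest mitochondrial share (0.637%, 0.814). Among the E. ulmoides libraries, replicate 4 was lowest for Y43B11AR.3 (72.9 FPKM, 0.759), K11D12.12 (59.8 FPKM, 0.774) and fbxa-108 (65.4 FPKM, 0.714), and highest for Y45G12C.16 (57.6 FPKM, 0.951). Replicate 1 of E. ulmoides was highest for mec-12 (2.16 FPKM, 0.724) and fbxa-60 (21.7 FPKM, 0.74), and replicate 5 was lowest for fat-5 (11.6 FPKM, 0.75).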

How the results depend on the processing

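The numbers of 2129 higher and 837 lower genes depended on the fold limits, the filter and the scaling. With other scalings they were 3787 and 80 without further scaling, 1285 and 713 with quantile normalization, 1299 and 557 with cyclic loess, and 2367 and 648 with median of ratios. No filter on low values gave 1433 lower genes, a mean FPKM of at least 5 gave 149, and the filter over all 15 libraries gave 1314, which change the genes tested and those that set the scale. Without a fold limit the counts were 4357 and 4745, and with limits of 2 and 0.5 they were 454 and 22. Leaving out each extract library in turn gave 1750 to 2314 higher and 588 to 1242 lower genes, and leaving out the 4 deepest libraries gave 2330 and 1008. The other settings (pseudocount, 10 libraries alone, rank test, voom on recovered fragments) stayed within 1.5 times of both counts.

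Replicate numbers did not pair the libraries, since same-numbered C. chinensis and E. ulmoides libraries had correlations of deviations of -0.28 to 0.06, and a replicate block gave 2132 higher and 836 lower genes. A block by code number gave 2438 and 1006.

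Of 176 called genes named, none changed sign and 127 kept the call in every setting in which they were tested again. The changed fold limits were left out of this count. A gene that a filter dropped was not counted as losing its call. Without further scaling, 29 of the 53 named lower genes and none of the 123 higher ones lost the call, with quantile normalization 24 and 11, with cyclic loess 27 and 12, and with median of ratios 5 and 0. Among genes not called, signs turned for hsp-16.48 with the code block (0.013), for hsp-70 with quantile normalization (-0.17) and cyclic loess (-0.16), for act-1 with cyclic loess (0.06) and for cdc-42 without further scaling (0.02) and with cyclic loess (0.13). With voom, nspa-3 was -0.40 and 21ur-2124 -0.17, and 21ur-2124 was -0.15 with cyclic loess. Leaving out single libraries gave -0.55 to 0.78 for nspa-3, -0.26 to 0.74 for 21ur-2124 and -0.87 to 0.40 for Y45G12C.16. The causes were not tested. Depth limits genes with few fragments, such as 21ur-13748 and R02E4.3.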

Other observations

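By type of gene, 16.3% of the 12645 protein-coding genes tested were called higher and 6.09% lower with C. chinensis. Among 440 pseudogenes tested these shares were 5.23% and 11.1%, so lower calls outnumbered higher ones. Of 63 annotated piRNA loci tested 10 were called higher and 1 lower, and the piRNA loci together took 0.00121% to 0.00161% of the fragments with C. chinensis, 0.00083% to 0.00107% with E. ulmoides and 0.000773% to 0.00131% with DMSO. The 60 genes called lower with every scaling included fbxa-140, fbxa-198, fbxa-108 and fbxc-45, the histone genes his-60, his-73 and his-32, the cathepsin B-like cpr-2, the insulin-like ins-23 and the kinesin gene klp-10, and the rest were largely genes known by sequence names.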
